A study of Mus musculus with 4 samples.

Results

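The non-coding RNAs of 3 imprinted mouse loci were described in RNA immunoprecipitation (RIP) libraries made with an antibody to LARP7. The members were chosen by gene symbol from a list of 10 names: the small nucleolar RNAs (snoRNAs) Snord64, Snord107, Snord115 and Snord116, their host transcript Snhg14, the long non-coding RNAs (lncRNAs) Meg3, Rian and Mirg, the microRNA precursor Mir127, and the lncRNA Kcnq1ot1. Of the 50600 gene models in each library, 8 carried 1 of these symbols, each on a single model, so no sum over models was needed. No model carried the symbol Snord115 or Snord116, and no member with a model was at 0 in all libraries. The members were proposed with their LARP7 and IgG counts known, so their differences between the antibodies are given as a description. They were part of the fit over all genes, but no significance of their own is read from it.

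Testes of C57BL/6 mice aged 8 weeks were used for both groups, and no genotype or treatment separated them. The LARP7 group held 2 libraries precipitated with an anti-LARP7 antibody, and the IgG group held 2 libraries precipitated with a non-specific IgG, which measures RNA that stays on the beads without the target. The design text calls the pairs biological replicates, but the labels do not say whether they came from separate animals, so the errors measure only the spread between these libraries. LARP7 is a La-related protein known for binding the 3′ end of the 7SK RNA. Whole testis was lysed for both groups, so the cell types that the RNA came from cannot be told apart. No library of RNA from before the precipitation was among the 4, so a count cannot be set against abundance in the tissue.

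In genomic imprinting only the copy of a gene from a given parent is active. The Snhg14 transcript runs from the Snrpn region towards and across Ube3a as its antisense RNA, and its introns hold box C/D snoRNAs, most of which have no known modification target. Its Snord115 and Snord116 repeats are known mainly from the brain, and loss of the Snord116 repeat belongs to the genetics of Prader-Willi syndrome. Meg3, Rian and Mirg are transcribed from the maternal copy of the Dlk1-Dio3 locus, and the stretch they cover carries many microRNAs and box C/D snoRNAs. Kcnq1ot1 is an antisense RNA of the paternal copy, known for silencing its neighbours in cis.

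The microRNA results turn on a few precursors of the Dlk1-Dio3 locus, and their sequences are shown so that the counted hairpin can be told from its mature arms. They come from RefSeq on GRCm38.p6, the assembly of mm10. The precursor of Mir127 is a hairpin of 70 nt at chr12:109592846-109592915, plus strand, inside the span of Rtl1 (to which it is known to be antisense), and the precursor of Mir541 is a hairpin of 90 nt at chr12:109742409-109742498, plus strand, inside the span of Mirg. In both hairpins the capitals mark the mature arms.
Mir127 hairpin: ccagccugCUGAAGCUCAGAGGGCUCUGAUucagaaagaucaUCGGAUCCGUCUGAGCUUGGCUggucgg
Mir541 hairpin: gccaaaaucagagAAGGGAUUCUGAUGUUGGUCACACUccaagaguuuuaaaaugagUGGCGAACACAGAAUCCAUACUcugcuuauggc
In the mature arms of Mir127, Mir541 and the neighbouring Mir412 the capitals mark the seed, bases 2 to 8, which pairs with targets.
miR-127-5p: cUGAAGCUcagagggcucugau
miR-127-3p: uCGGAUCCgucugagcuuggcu
miR-541-5p: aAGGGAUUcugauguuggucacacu
miR-541-3p: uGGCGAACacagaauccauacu
miR-412-5p: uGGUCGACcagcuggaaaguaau
miR-412-3p: uUCACCUGguccacuagccg
These 6 arms have 6 different seeds, and none of them is shared with another of the 112 mature arms listed for the microRNA models from Meg3 to Mirg. The deposited values count reads on the whole precursor, so they do not say which arm, or how much of the hairpin, was present.

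The libraries held 4411271 to 6994514 counts. The members took 0.0474% and 0.0389% of all counts in the LARP7 libraries and 0.00832% and 0.0136% in the IgG libraries. Values are given in CPM, counts scaled to a common library size. The library sizes were either scaled by TMM, a method that centres most genes on no change, or taken as the plain totals. The scalings differ by 1.42 in where they put the median gene of the 12234 tested, whose log2 fold change was -0.05 by TMM and -1.47 by library totals. Among these genes edgeR's quasi-likelihood test with Benjamini-Hochberg adjustment called 14.5% higher and 9.69% lower with the LARP7 antibody using TMM, and 3.95% higher and 47.1% lower using library totals. Of the 8 members with a model, 6 passed the filter on low counts and 2, Meg3 and Mirg, did not. Beside that background, the same fit counted 4 of the 6 as higher and 0 as lower with TMM (5 and 0 at an unadjusted p under 0.05), and 3 as higher with library totals. Both LARP7 libraries lay above both IgG libraries for 6 of the 6 members by TMM, as for 32.9% of all genes, and for 3 by library totals, as for 9.7%. By library totals Kcnq1ot1 lay below, as did 63.9% of all genes. Nothing is read from these counts, since the choice of members used the same comparison.

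**Figure D1:**
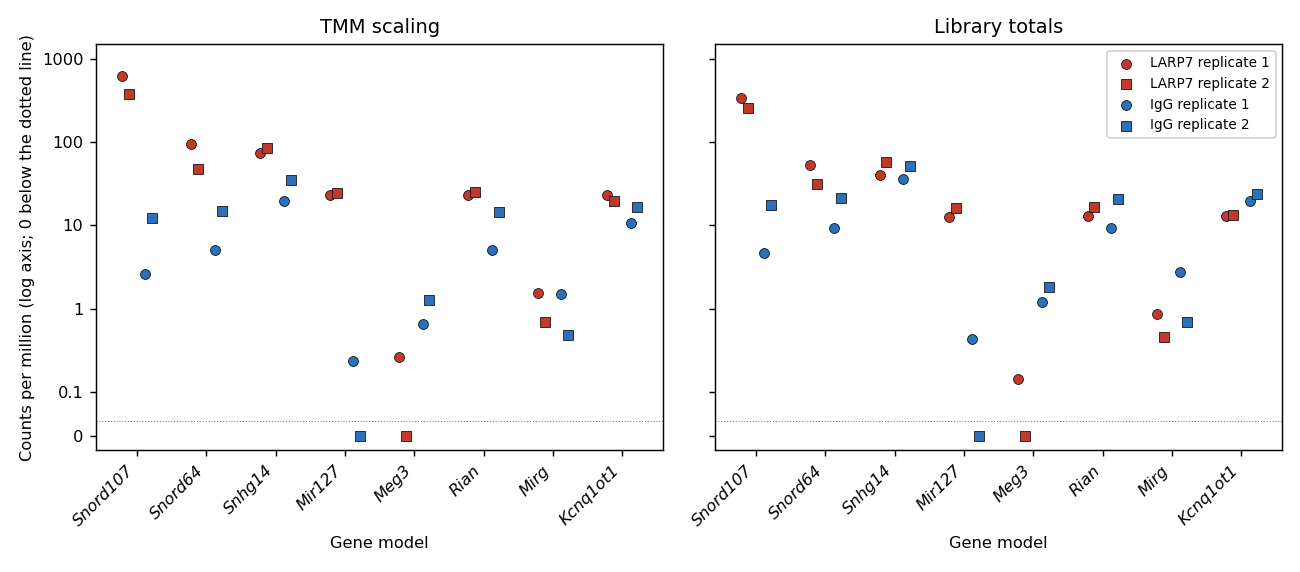
Level of each member in the 4 libraries in CPM (log axis, with 0 below the dotted line), scaled by TMM (left) and by library totals (right); circles are replicate 1 and squares replicate 2 of the LARP7 (red) and IgG (blue) RIP. Snord107, Snord64 and Mir127 lie apart between the antibodies under both scalings, Meg3 is lower with LARP7 under both at few counts, and Kcnq1ot1 changes side.

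Snord107, a box C/D snoRNA of the Prader-Willi region with no assigned target, had the most counts of the members. Its 70 nt model (ENSMUSG00000089375.1), which the RefSeq table does not place, held 2363.57 and 1651.48 estimated counts in the LARP7 libraries and 32.98 and 77.96 in the IgG libraries. That was 614 and 379 CPM with TMM against 2.58 and 12.3, and 342 and 254 CPM with library totals against 4.72 and 17.7. Both LARP7 libraries lay far above both IgG libraries under either scaling, and the lowest LARP7 count was above the highest IgG count. The log2 fold change was 6.08 (SE 0.92) with TMM and 4.74 (SE 0.68) with library totals, and leaving out IgG replicate 1 or 2 gave 5.33 or 7.64 with TMM. By this value Snord107 ranked 1 among the 81 tested models with a Snord symbol, of which 31 were called higher and 0 lower (median 1.70). Its posterior SD from RSEM was at most 0.455% of the count. That value covers the splitting of reads between models, not the spread between libraries.

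Snord64, a box C/D snoRNA of the same locus (ENSMUSG00000077191.1, chromosome 7, 59978811 to 59978856 in RefSeq, a model of 67 nt in the files), lies inside the Snhg14 span. It held 363.99 and 204.99 counts with the LARP7 antibody and 64.99 and 93.99 with IgG. These are 94.6 and 47.0 CPM against 5.08 and 14.9 with TMM, and 52.6 and 31.5 against 9.29 and 21.3 with library totals. The groups did not overlap under either scaling, but they lay closer together than for Snord107. The log2 fold change was 2.84 (SE 0.61) with TMM and 1.46 (SE 0.52) with library totals, and it ranked 12 among the 81 Snord models. With TMM it was 2.24 when LARP7 replicate 1 was left out. It was 2.26 when IgG replicate 1 was left out and 3.86 when IgG replicate 2 was.

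Snhg14, the host transcript (ENSMUSG00000100826.6, an lncRNA at chromosome 7, 59272737 to 60450177), held 280.59 and 369.24 counts with the LARP7 antibody and 252.06 and 224.19 with IgG. With TMM it had 72.9 and 84.7 CPM against 19.7 and 35.5, and with library totals 40.6 and 56.8 against 36.0 and 50.8. The groups were apart only with TMM, and with library totals they overlapped. The log2 fold change was 1.52 (SE 0.49) with TMM and 0.16 (SE 0.52) with library totals. Relative to the median of all genes it was 1.57 and 1.63. It ranked 168 among 504 tested lncRNAs, with a class median of 0.71 by TMM and -0.68 by totals. Dropping LARP7 replicate 1 or 2 gave 1.61 or 1.41, and dropping IgG replicate 1 or 2 gave 1.15 or 2.05. The length given for the Snhg14 model was 523 to 698 nt depending on the library, beside a span of 1177441 nt. How much of the span the counted reads cover is not given. The posterior SD of Snhg14 reached 6.84% of the count.

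The snoRNA repeats of the locus are present in the files under other names. Within the Snhg14 span RefSeq places 68 snoRNA models of 92 to 94 nt, 17 of them with Snord116l symbols, and gives Snord116 as a synonym of another of them, Gm26504 (chromosome 7, 59675990 to 59676079). Gm26504 held 1.89 and 3.12 estimated counts with the LARP7 antibody and 1.26 and 1.61 with IgG, exactly the values of other copies: the largest set of models with identical counts has 29. Of the 68 models, 49 held counts that another copy shared exactly, and reads of such copies were not told apart. Others had counts of their own, such as Gm24264 with 2.14 and 0 (LARP7) and 1.08 and 3.13 (IgG). The sum over all 68 does not show such differences. The 68 models together held 167.9 and 203.85 counts with the LARP7 antibody and 54.49 and 76.72 with IgG. That is 45.2 ± 2.23 CPM against 8.20 ± 5.57 with TMM (SD, n = 2 each; log2 ratio of the means 2.46), and 27.8 ± 5.01 against 12.6 ± 6.79 with library totals (1.14). Most of this sum was spread thinly: 58 of the 68 models reached 1 count over the 4 libraries, and the fullest, Gm23767, held 16.64 and 20.94 with the LARP7 antibody and 0 and 2.08 with IgG. The 17 models with Snord116l symbols together had 9.73 and 12.8 CPM with LARP7 against 1.63 and 4.06 with IgG by TMM (log2 ratio of the means 1.99). With library totals these 17 had 5.41 and 8.6 CPM against 2.99 and 5.82, which overlap (0.67).

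A second array of 132 snoRNA models of 78 to 79 nt lies nearer to Ube3a, at chromosome 7, 59347681 to 59619095. The table does not name them, and the Snord115 repeat is known to lie on this side of Snord116. All 132 together held 1.96 and 3.96 counts in the LARP7 libraries and 0 and 1.02 in the IgG libraries, with 69 of them at 0 in every library. At this depth these RNAs were barely detected with either antibody, so no difference can be read from them. Both arrays were summed after their values had been seen. Of the 5 neuron markers, Map2, Syt1 and Tubb3 held counts, and Rbfox3 and Snap25 were at 0 in all libraries. Together the 5 held 26 and 14 counts with LARP7 and 133 and 59 with IgG. Their bearing on the arrays was not tested.

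**Figure D2:**
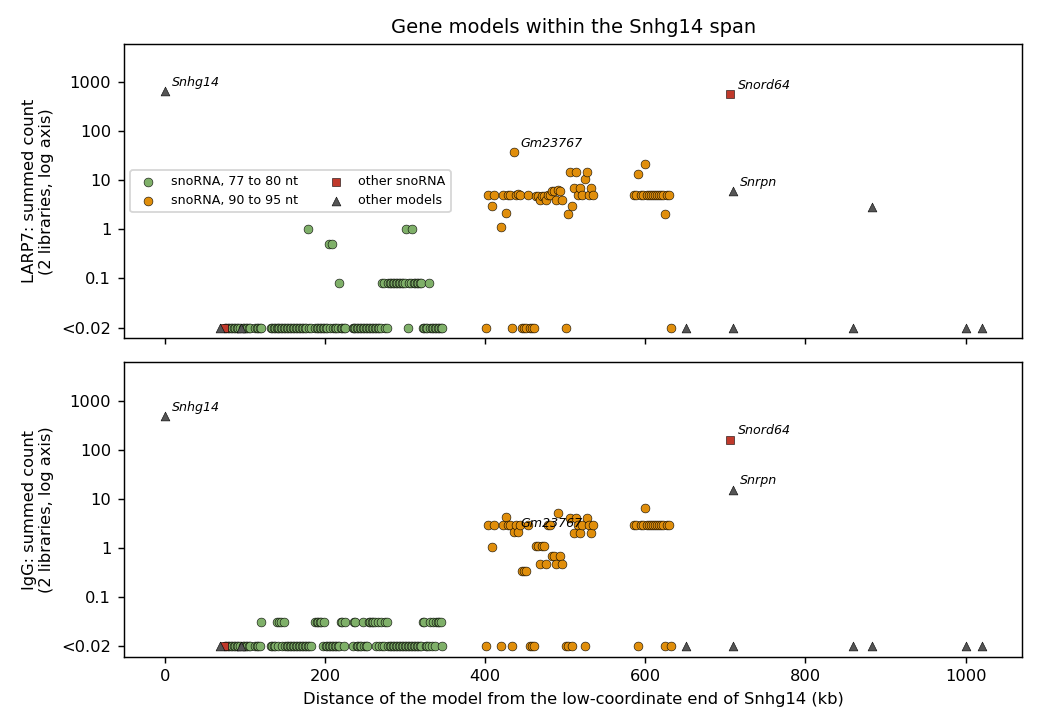
Summed counts of the gene models that RefSeq places within the Snhg14 span, over the 2 LARP7 libraries (top) and the 2 IgG libraries (bottom), on a log axis against distance from the low-coordinate end of Snhg14 in kb; green and orange circles are the shorter and longer snoRNA arrays, the red square is Snord64 or a model at 0, and triangles are other models. The shorter array stays at or below 1 count per model, the longer array mostly lies between 1 and 10, and Snord64 reaches 568.98 with LARP7 and 158.98 with IgG; Snord107 has no position in the table and is not drawn.

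Ratios between members within a library do not depend on the scaling. Snord107 had 6.49 and 8.06 times the counts of Snord64 in the LARP7 libraries and 0.507 and 0.829 times in the IgG libraries. The lowest LARP7 ratio was 7.83 times the highest IgG ratio, so the order of the snoRNAs turned over between the antibodies. Against the longer array, Snord107 had ratios of 14.1 and 8.10 with LARP7 and 0.605 and 1.02 with IgG. Against Snhg14 they were 8.42 and 4.47 with LARP7 and 0.131 and 0.348 with IgG. Snord64 and the longer array moved less against the host. Snord64 over Snhg14 was 1.30 and 0.555 with LARP7 and 0.258 and 0.419 with IgG, and the longer array over Snhg14 was 0.598 and 0.552 against 0.216 and 0.342. Between loci, Rian over Snhg14 was 0.318 and 0.292 with LARP7 and 0.258 and 0.405 with IgG, which overlap. Kcnq1ot1 over Snhg14 was 0.315 and 0.234 against 0.542 and 0.463, lower in both LARP7 libraries. These ratios were not tested, since the smallest exact two-sided permutation p for 2 libraries against 2 is 0.333. They compare counts, not levels per length.

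**Figure D3:**
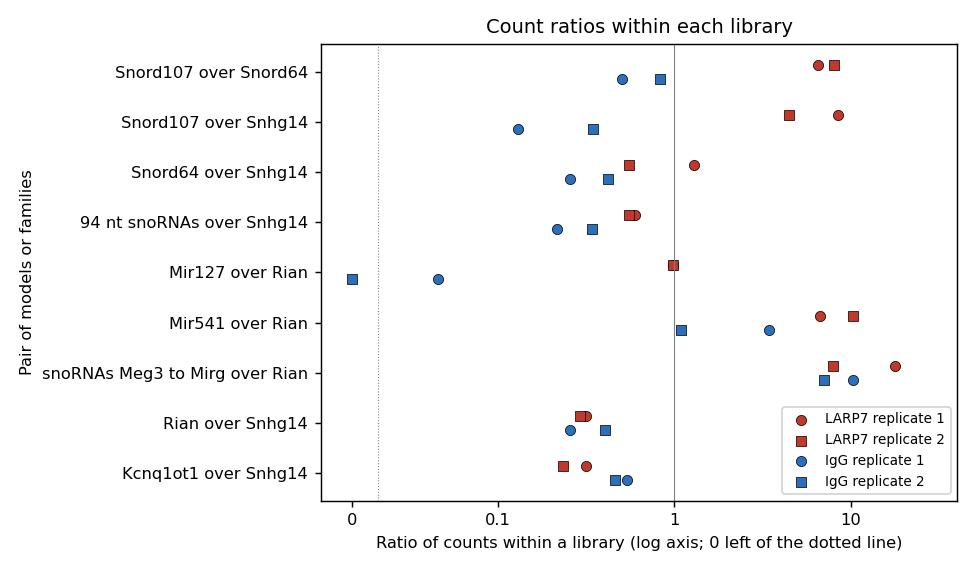
Ratio of counts between members or families in each library (log axis, with 0 left of the dotted line; the solid line marks equal counts), with LARP7 libraries in red and IgG libraries in blue, and circles for replicate 1 and squares for replicate 2. The lowest LARP7 ratio is 7.83 times the highest IgG ratio for Snord107 over Snord64, 12.9 times for Snord107 over Snhg14 and 21.3 times for Mir127 over Rian, Rian over Snhg14 overlaps between the antibodies, and Kcnq1ot1 over Snhg14 is lower with LARP7.

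Per length, the authors' TPM puts Snord107 at 651 and 689 in the LARP7 libraries and 25.7 and 69.6 in the IgG libraries. Snord64 had 119 and 97.1 TPM against 57.4 and 96.6, so the IgG value of replicate 2 lay next to the LARP7 values on this scale. In TPM, Mir127 had 24.2 and 44.2 with LARP7 and 2.33 and 0 with IgG, and Snhg14 had 1.70 and 5.15 against 5.25 and 5.81. Thus the TPM order in both LARP7 libraries was Snord107, Snord64, Mir127 and Snhg14, whereas in both IgG libraries Snord64 stood above Snord107. TPM of these short models depends on an effective length of 10.6 to 17.0 nt, which differs between libraries, and Snhg14 has the opposite direction on this scale (-0.68, on the log2(TPM + 1) scale).

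At the Dlk1-Dio3 locus, Mir127 (ENSMUSG00000070076.2) held 88 and 106 counts with the LARP7 antibody and 3 and 0 with IgG. Both LARP7 libraries lay far above the IgG libraries, of which 1 held no read. From the 194 and 3 counts the ratio of the groups was 151 with TMM and 55.0 with library totals. The 95% exact intervals, 50.8 to 737 and 18.5 to 269, cover counting error only. Its log2 fold change was 7.12 (SE 0.72) with TMM and 5.72 (SE 0.86) with library totals. Leaving out IgG replicate 2 gave 6.6 with TMM, and leaving out IgG replicate 1 gave 9.84, a value set by a group at 0. It ranked 4 among 89 tested models with a Mir symbol, of which 69 were called higher and 2 lower (median 2.83). A precursor could pass the low-count filter through the LARP7 libraries alone, as Mir127 did. The rank and these calls are therefore not independent of the filter. Rtl1, the gene on the other strand there, was at 0 in all libraries. The precursor neighbours in the same antisense stretch held few reads: Mir433 had 3 and 3 counts with LARP7 and 0 with IgG, and Mir431 had 1 in all.

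Meg3, a maternally expressed lncRNA (ENSMUSG00000021268.17, chromosome 12, 109540996 to 109571729), held 1 and 0 counts with the LARP7 antibody and 8.32 and 8 with IgG. It had the fewest counts of the members with a model, and both LARP7 libraries lay below both IgG libraries under either scaling. With TMM the IgG level was 6.87 times that with LARP7, with a 95% counting interval of 1.07 to 288, and with library totals 18.8 times (2.92 to 789). These intervals cover counting error only, not the spread between libraries. They are a description and not a test, since Meg3 was chosen with these counts known. The counts were too few for the filter, so no fit is given.

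Rian, the host of box C/D snoRNAs (ENSMUSG00000097451.9, chromosome 12, 109603945 to 109661716), held 89.34 and 107.93 counts with the LARP7 antibody and 64.96 and 90.84 with IgG. With TMM it had 23.2 and 24.8 CPM against 5.07 and 14.4, and with library totals 12.9 and 16.6 against 9.29 and 20.6, where the groups overlapped. The log2 value of LARP7 over IgG was 1.32 (SE 0.50) with TMM and -0.02 (SE 0.52) with library totals. Without IgG replicate 2 it was 2.29, and without IgG replicate 1 it was 0.73, both with TMM. Mirg, the microRNA host at the far end (ENSMUSG00000097391.8, chromosome 12, 109734981 to 109749458), held 6 and 3 counts with LARP7 and 19.24 and 3.03 with IgG, too few to be tested, and its groups overlapped.

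The small RNAs around these hosts held many more counts than the hosts themselves. The 13 snoRNA models from Meg3 to Mirg together held 1579.96 and 857.96 counts with LARP7 and 670.96 and 637.95 with IgG. This was 304 ± 151 CPM against 76.7 ± 34.3 with TMM (SD, n = 2 each; log2 ratio of the means 1.99) and 180 ± 68.2 against 120 ± 34.4 with library totals (0.58), where the groups overlapped. Most of these counts lay on DQ267100 and DQ267102, a pair of 72 nt models inside the Rian span. DQ267100 held 785.97 and 319.97 with LARP7 and 190.96 and 381.95 with IgG, and DQ267102 held 663 and 364 against 340 and 165. Over Rian, the 13 models had ratios of 17.7 and 7.95 with LARP7 and 10.3 and 7.02 with IgG, which overlap. Mir127 over Rian, by contrast, was 0.985 and 0.982 with LARP7 and 0.0462 and 0 with IgG. The 60 microRNA precursor models of the stretch mostly held no reads, with 43 at 0 in all libraries. The 58 other than Mir127 and Mir541 held 53 and 83 counts together with LARP7 and 10.76 and 20.97 with IgG. These models were grouped by position after their values had been seen and were not tested as a group.

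**Figure D4:**
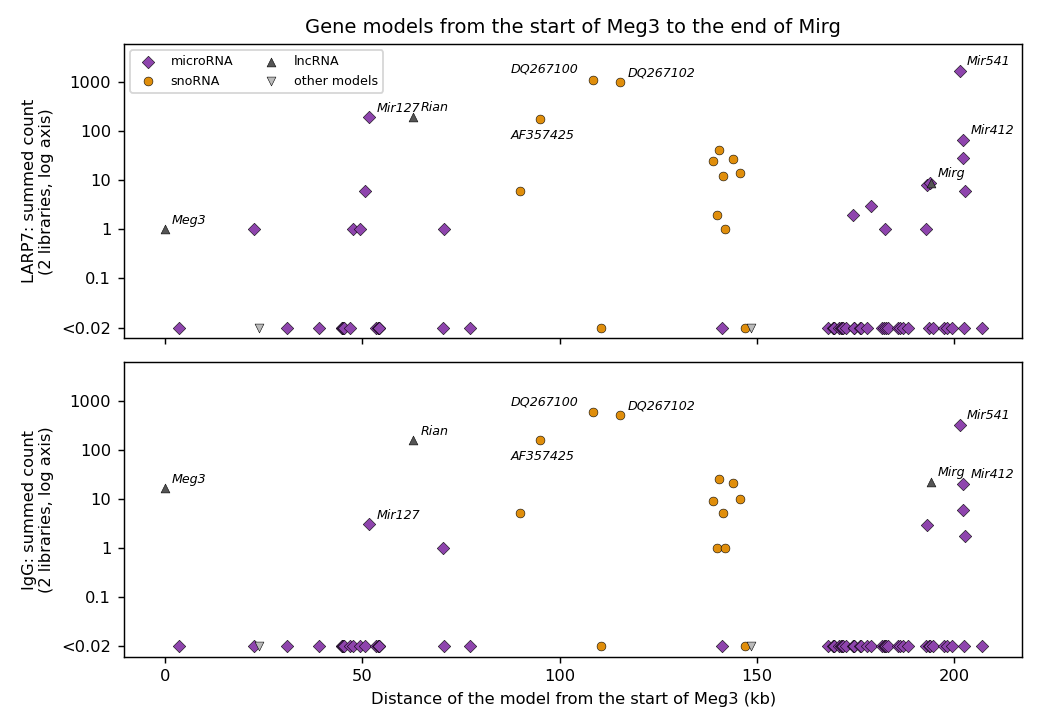
Summed counts of the gene models from the start of Meg3 to the end of Mirg, over the 2 LARP7 libraries (top) and the 2 IgG libraries (bottom), on a log axis against distance from the start of Meg3 in kb; diamonds are microRNA precursors, circles snoRNAs and triangles lncRNAs. Mir127 moves from 3 counts with IgG to 194 with LARP7 and Mir541 from 322 to 1696, while most microRNA precursors stay at 0 in both.

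The other imprinted genes were taken from lists of known imprinted genes, so their differences could be tested, although earlier results of these data were known when the lists were made. Mir541, a microRNA precursor within Mirg, had the largest rise among those called. It held 594 and 1102 counts with LARP7 and 223 and 99 with IgG, or 204 ± 69.7 CPM against 16.5 ± 1.24 with TMM (SD, n = 2 each). Both LARP7 libraries were above both IgG libraries, and the log2 fold change was 3.62 (SE 0.58, edgeR adjusted p = 0.00485; 2.22 and adjusted p = 0.000422 with library totals). With TMM it stayed between 3.22 and 3.92 when any library was left out, past the threshold each time, but limma on log2(TPM + 1) gave 1 (adjusted p = 0.391). Mir412, beside it, had 31 and 36 counts against 2 and 18 (2.59, SE 1.01, edgeR adjusted p = 0.0971; 1.27 and adjusted p = 0.157 with library totals). With TMM it was 5.6 without IgG replicate 2, where only the 2 counts of IgG replicate 1 were left. It was 1.51 without IgG replicate 1, and 2.56 or 2.54 without LARP7 replicate 1 or 2.

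Of 64 listed small RNAs of the Dlk1-Dio3 locus, 56 had a model, 38 of these were at 0 in all libraries, and only 5 could be tested. Of these 5, 2 rose and 0 fell in edgeR with TMM, and 1 rose with library totals. Over all genes 14.5% were called higher with TMM and 3.95% with library totals. With TMM, 77.5% of tested models with a Mir symbol and 38.3% of those with a Snord symbol were called higher. The median log2 fold changes of these classes were 2.83 and 1.7. The calls are therefore not read as a result about the locus. Besides Mir541, the snoRNA AF357425 was called higher at 1.48 (SE 0.41, edgeR adjusted p = 0.0269). Its counts were 87.99 and 87.99 with LARP7 and 113 and 41 with IgG. AF357425 was not called when any 1 of the 4 libraries was left out (1.37 and 1.57 with LARP7 replicates 1 and 2 dropped, 1.73 and 1.34 with IgG replicates 1 and 2 dropped). By library totals it stood at 0.03 (adjusted p = 0.967). Of the 4 protein-coding genes listed there with a model (Dlk1, Begain, Dio3 and Rtl1), none passed the filter.

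Ube3a, which encodes a ubiquitin ligase and lies opposite Snhg14, held 123.53 and 199.48 counts with LARP7 and 318.12 and 168.39 with IgG. Its log2 fold change was 0.60 (SE 0.41, edgeR adjusted p = 0.3) with TMM and -0.79 with library totals (adjusted p = 0.185). Of the 3 genes tested at that locus, 0 rose and 0 fell with TMM, and 1, Atp10a, fell with library totals (-2.66, adjusted p = 0.000218; -1.19 and 0.133 with TMM). Snrpn, a splicing protein gene, held 4 and 2 counts against 15.08 and 0 and was not tested, and Snurf and Magel2 were at 0 in all libraries. Without strand-specific counting, which is not given in the sources used here, reads from Snhg14 and Ube3a could not be told apart where they overlap.

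Kcnq1ot1 (ENSMUSG00000101609.1, an lncRNA at chromosome 7, 143213111 to 143296547, with a model of 84395 nt) held 88.39 and 86.36 counts with the LARP7 antibody and 136.53 and 103.69 with IgG. With TMM it had 23.0 and 19.8 CPM against 10.7 and 16.4, and with library totals 12.8 and 13.3 against 19.5 and 23.5. The groups did not overlap under either scaling, but they changed places. The log2 fold change was 0.66 (SE 0.40) with TMM and -0.74 (SE 0.50) with library totals. Relative to the median of all genes it was 0.70 with TMM and 0.73 with library totals. It ranked 257 among 504 lncRNAs, in the middle of that class. Kcnq1, on the opposite strand, held 1 count in LARP7 replicate 2, 1 in IgG replicate 1 and 0 in the others.

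Among the 12 listed genes of the Kcnq1 domain, 3 were tested, and 1 rose and 0 fell with TMM, against 0 and 2 with library totals. Tssc4, a gene of this domain, was the riser, with 21 and 33 counts against 18 and 8 (2.26 on the log2 scale, SE 0.59, edgeR adjusted p = 0.0228). By library totals Tssc4 had 0.86 (adjusted p = 0.358) and was not called. Nor was it when LARP7 replicate 1 (2.47) or 2 (2.02) was dropped (adjusted p = 0.0523 and 0.215). Nap1l4, a histone chaperone gene, had -0.76 with TMM (edgeR adjusted p = 0.269) and -2.21 with library totals (adjusted p = 0.000463). Cd81, a tetraspanin gene, had -0.30 (adjusted p = 0.789) and -1.85 (adjusted p = 0.0238).

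Over the remaining imprinted loci, 2 non-coding and 19 protein-coding genes were tested. The non-coding Nespas and Peg13 had -0.92 and -0.35 with TMM (edgeR adjusted p = 0.491 and 0.794). By library totals Nespas was called lower (-2.40, adjusted p = 0.024) and Peg13 was not (-1.83, adjusted p = 0.101). Mir298, at the Nespas locus, held 8 and 25 counts against 3 and 1 and did not pass the filter. In the edgeR fit with no filter it was called higher (4.06, adjusted p = 0.00494). Mir298 passed the filter with LARP7 replicate 1, IgG replicate 1 or IgG replicate 2 dropped (4.7, 4.42 and 4.02), but not with LARP7 replicate 2 dropped. Those fits leave 1 library in a group, and the 25 counts of LARP7 replicate 2 were then enough for the filter. They therefore add no support of their own. H13, which encodes a signal peptide peptidase, rose by 1.57 on the log2 scale (SE 0.46, edgeR adjusted p = 0.0323). It was not past the threshold by library totals (0.20), or when LARP7 replicate 2 (0.96), IgG replicate 1 (1.5) or IgG replicate 2 (1.68) was dropped. Peg10, a gene derived from a retrotransposon, fell: it held 32 and 20 counts against 235 and 111 (-1.48, SE 0.45, edgeR adjusted p = 0.0373; -2.93 with library totals). Peg10 was no longer called by DESeq2 (-1.43), or when LARP7 replicate 2 (-1.11), IgG replicate 1 (-1.44) or IgG replicate 2 (-1.46) was dropped. Sfmbt2 and Zdbf2 had -0.66 and -0.61 with TMM (edgeR adjusted p = 0.25 and 0.293) and were called lower only with library totals (-2.11 and -2.04).

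In all, 4 of the 32 tested imprinted genes outside the members were higher and 1 was lower with TMM, beside 14.5% and 9.69% of all genes. Their median log2 fold change was -0.25, and that of all genes -0.05. With library totals 1 was higher and 16 were lower, with medians of -1.64 and -1.47. These shares lie near the background and are no result about imprinted genes.

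**Figure D5:**
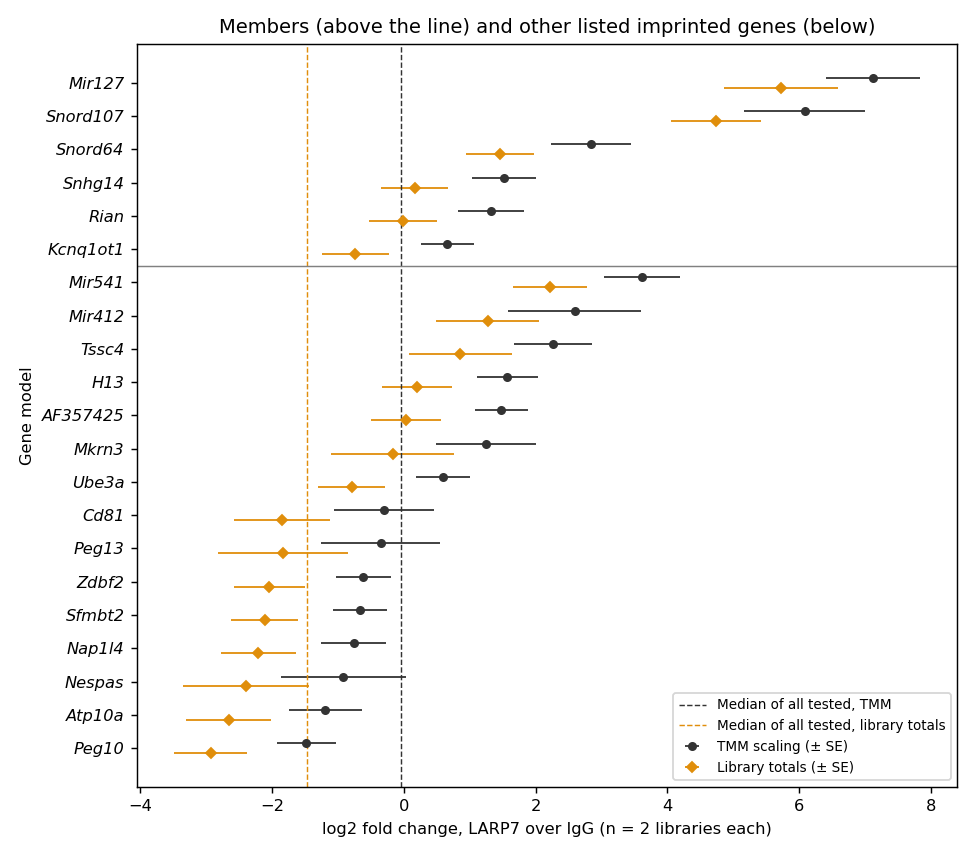
Log2 fold change of LARP7 over IgG with its standard error (n = 2 libraries each) for the 6 members tested (above the line, given as a description) and for the other named imprinted genes tested (below), with TMM (black circles) and library totals (orange diamonds); dashed lines are the medians of all 12234 genes. Relative to the median of all genes with TMM, the 6 members tested range from 0.70 for Kcnq1ot1 to 7.17 for Mir127. Rian and Kcnq1ot1 are above 0 with TMM and below 0 with library totals. Meg3 and Mirg were not tested and are not drawn.

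For likeness, the 3 tested genes whose centred log2 CPM over the 4 libraries lay nearest to that of Snord107 were Gm42885, Gm22363 and Gm13667, with root mean square differences of 0.505, 0.647 and 0.658. With 4 libraries this says only that they too were high in both LARP7 libraries and low in both IgG libraries. Gm42885 held 2691.37 and 4010.9 counts with LARP7 and 100.98 and 122.7 with IgG.

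Of the marker lists, that of spermatids held the most counts in every library. The 6 spermatid markers, which include the protamine and transition protein genes, held 1343 and 975 counts in the LARP7 libraries and 10657 and 6050 in the IgG libraries, or 349 and 224 CPM against 832 and 957 with TMM, and 3 of 6 were called lower. All 5 spermatocyte, 5 spermatogonial, 6 Sertoli and 7 Leydig markers had counts. With TMM the spermatocyte sum was 94.3 to 121 CPM with LARP7 and 130 to 148 with IgG, the spermatogonial sum 13.5 to 18.1 and 6.37 to 8.86, and the Sertoli sum 39.3 to 55.4 and 80.8 to 89.5. By library totals the spermatogonial sum was 7.52 and 12.2 CPM with LARP7 and 16.2 and 9.12 with IgG, which overlap. The spermatocyte and Sertoli sums were lower with LARP7 under either scaling. The Leydig sum was 46.0 to 51.2 CPM with LARP7 and 49.1 to 52.2 with IgG with TMM, but 28.5 and 30.8 against 89.9 and 74.8 with library totals. With TMM, 1 spermatogonial marker was called higher and 1 Sertoli marker lower among these lists. With library totals, 6 of 6 tested spermatid, 4 of 5 spermatocyte, 5 of 5 Sertoli and 4 of 6 Leydig markers were called lower and 0 spermatogonial markers higher, beside 47.1% of all genes lower and 3.95% higher. Of the 8 peritubular, vascular and blood markers all had counts, with 20.2 and 13.6 CPM with TMM against 17.3 and 8.74. By library totals their sum was 11.2 and 9.09 CPM with LARP7 against 31.7 and 12.5 with IgG. The part of these differences in the members' values was not tested.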

How the data were processed

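RIP-seq libraries from mouse testis were analysed as deposited. Lysis was in 150 mM NaCl, per the labels' protocols, followed by 4 h on antibody-coated beads and washes in 500 mM NaCl. Small RNA libraries of 15 to 300 nt were then made. This selection favours short RNAs and fragments of long ones. The submitters' processing notes name RSEM, Bowtie2, cutadapt and the build mm10. Versions, settings and the use of strand were not given in the sources used here. Per the file headers, the authors deposited for each gene model an expected count, in which reads that map to several models are split, a TPM, and a posterior SD with the model's lengths, which are used here as other values.

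Expected counts were rounded (13.4% to 18.9% of models were not whole) and tested with edgeR 4.0.16 in R 4.3.3: filterByExpr, TMM, robust quasi-likelihood F tests, two-sided, adjusted over 12234 genes, threshold 0.05. Fits were checked on simulated data. SEs are the unshrunk log2 fold change over the square root of F, and SDs are over 2 libraries. Alternatives were library totals, no filter, leaving out each library, the replicate number as a block, DESeq2 1.42.0, and limma 3.58.1 on the log2(TPM + 1) scale. Positions are from RefSeq on GRCm38.p6. Members and lists were chosen with earlier results of these data known. Named genes were all members and, per list, up to 6 genes past the threshold and up to 3 with the most counts; likeness was measured for the member with the most counts. Sequences of the snoRNAs were not used here.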

Additional observations from a re-analysis of the deposited data

How the results depend on the processing

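Over all genes, 483 were higher and 5759 lower with library totals, DESeq2 called 729 lower, and limma on log2(TPM + 1) called 0 higher and 0 lower (57 and 3987 at an unadjusted p under 0.05). Leaving out 1 library gave 660 to 2138 higher and 197 to 922 lower, with both lowest counts without LARP7 replicate 2. The members called higher numbered 4 in the main edgeR fit, 3 to 5 with 1 library left out and 0 with limma on TPM (2 unadjusted). Among the listed imprinted genes outside the members, 4 higher and 1 lower became 1 and 16 with library totals, 0 and 0 with limma on TPM (0 and 6 unadjusted), and 7 higher with no filter. DESeq2 gave 0 lower (2 unadjusted). Leaving out 1 library gave 1 to 7 higher, lowest without LARP7 replicate 2 and highest without IgG replicate 2, and 0 to 1 lower, with 0 in edgeR without LARP7 replicate 2 and without IgG replicate 2 (1 and 3 unadjusted). With limma on TPM, Snhg14 (-0.68), AF357425 (-0.93), Tssc4 (-0.0035) and H13 (-0.36) changed sign, as did Rian (-0.03), Kcnq1ot1 (-0.02), Ube3a (-0.75) and Mkrn3 (-0.06); the cause was not tested. The labels number the libraries alike in both groups, but nothing says that a number marks a shared animal or day, and deviations of same-numbered libraries correlated at r = 0.19 over genes. With the replicate number as a block, 2088 genes were higher and 1405 lower, 5 members and 5 listed genes were higher and 1 listed gene lower, with Mir412 (3.03, edgeR adjusted p = 0.0356) added among the listed genes; Rian had 1.47. Each gene model on its own was not run as an alternative, since no member had over 1 model. Depth limits Meg3, Mirg and the array of 78 to 79 nt snoRNAs, whose counts cannot show a difference between the antibodies with any certainty.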
